A study of Mus musculus with 6 samples.

Results

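The 7 genes described here mark the pyramidal cells of hippocampal field CA1, and were followed in hippocampal RNA: *Wfs1*, *Fibcd1*, *Mpped1*, *Pou3f1*, *Spink8*, *Gpr161* and *Pex5l*. They were chosen by symbol as known CA1 markers, and all 7 were found among the 55421 genes of the count table. The RNA came from wild-type male C57BL/6N mice aged 8 to 10 weeks. Substance P (SP, 10 µM, 100 µL) was given under the skin on 14 consecutive days to 3 mice, and 100 µL of saline to 3 vehicle mice. Each mouse gave 1 library of the whole hippocampus, so a value mixes all cells of the dissected tissue, and fewer CA1 cells cannot be told apart from less RNA per cell. Directions are those of the SP libraries relative to vehicle, as the labels give them.

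CA1 pyramidal cells form the main output of the hippocampus and receive CA3 input through the Schaffer collaterals, the synapse where LTP was recorded in this study. The fields of the hippocampus differ in gene expression although all their principal cells are glutamatergic, and this is why a short set of genes can mark each one. Some CA1 genes are also used outside the hippocampus. *Wfs1*, *Mpped1*, *Pou3f1* and *Pex5l* are expressed by neocortical neurons as well, whereas *Spink8* and *Fibcd1* are the more restricted markers among the 7.

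The 6 libraries held 22349964 to 27605935 counts, and a count of 0 (limit of 3 counts) allows a level of up to 0.109 to 0.134 CPM (the count scaled to the normalized library size), an upper limit that covers counting error only. The groups were compared by the quasi-likelihood method of edgeR over 17069 genes, and the replicate number of the mouse entered as a block. Of these genes, 5 (0.0293%) were DEGs at FDR < 0.1 and |log2FC| > 0.3, and 0 of the 7 CA1 genes were. With the filter on low counts set by the group alone, 0 of 16707 genes were DEGs in edgeR, and 1705 had an unadjusted p under 0.05. For 3 mice against 3, relabelled without regard to the replicate block, the smallest two-sided p that exact permutation allows for any gene is 0.1. Relabelling within the blocks allows fewer arrangements, so its limit is higher. Libraries SP 1 and SP 2 stood apart in other cell types: SP 1 had 170 CPM summed over 6 choroid plexus markers, where the other libraries had at least 2776 CPM, and SP 2 had the highest summed oligodendrocyte markers, 3349 CPM against at most 2507 CPM elsewhere.

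The windows around the RefSeq start sites of *Fibcd1*, *Gpr161* and *Wfs1* are shown because these genes represent both directions found among the CA1 genes. Each window runs from 250 bases before the start to 50 bases after it on the gene's strand (RefSeq, GRCm38.p6), and 4 of the 7 genes had an entry, with 6 windows. Capitals mark an E-box (CAGATG or its reverse complement CATCTG), a core that NeuroD-type factors bind.
*Fibcd1*, chr2:31845956-31846255, minus strand: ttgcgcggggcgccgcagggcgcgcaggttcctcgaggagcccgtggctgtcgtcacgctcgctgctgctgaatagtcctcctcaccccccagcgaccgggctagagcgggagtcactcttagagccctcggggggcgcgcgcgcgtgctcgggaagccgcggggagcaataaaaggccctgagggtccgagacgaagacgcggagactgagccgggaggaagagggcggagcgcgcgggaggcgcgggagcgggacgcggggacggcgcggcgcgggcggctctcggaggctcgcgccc
*Gpr161*, chr1:165295516-165295815, plus strand: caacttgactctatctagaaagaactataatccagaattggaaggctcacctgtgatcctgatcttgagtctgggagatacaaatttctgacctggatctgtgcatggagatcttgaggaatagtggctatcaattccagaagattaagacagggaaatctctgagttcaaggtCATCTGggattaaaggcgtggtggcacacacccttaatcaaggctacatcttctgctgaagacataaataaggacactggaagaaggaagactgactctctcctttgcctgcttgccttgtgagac
*Wfs1*, chr5:36988933-36989232, minus strand: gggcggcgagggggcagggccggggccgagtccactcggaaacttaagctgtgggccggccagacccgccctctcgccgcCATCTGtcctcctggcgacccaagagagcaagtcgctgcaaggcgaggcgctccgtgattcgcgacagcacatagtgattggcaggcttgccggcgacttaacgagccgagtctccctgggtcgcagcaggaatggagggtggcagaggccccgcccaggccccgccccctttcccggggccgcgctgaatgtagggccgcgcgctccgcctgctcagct

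The E-box lay at bases 175 to 180 of the *Gpr161* window and at bases 81 to 86 of the *Wfs1* window. Both strands were searched, and 2 of the 6 windows of CA1 genes held this E-box, as did 17.2% of the 32851 windows of all genes. The octamer ATGCAAAT, the site of POU factors such as the product of *Pou3f1*, was in 0 of the 6 windows and in 1.74% of all windows. The cyclic AMP response element TGACGTCA was in 0 of the 6 and in 1.79% of all. The *Fibcd1* window was 74.3% G and C, the *Wfs1* window 70.0% and that of *Gpr161* 44.0%, against a median of 52.7% over all windows.

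The CA1 genes did not differ between groups in 1 direction. *Spink8*, *Fibcd1* and *Gpr161* had higher values in each SP library than in any vehicle library, *Mpped1* was lower in SP in each replicate pair, and *Wfs1*, *Pou3f1* and *Pex5l* overlapped between the groups. The log2 fold changes ran from -0.18 to 0.52 with a median of 0.093, where the median over all tested genes was 0.0015. Before adjustment, 4 of the 7 genes had p under 0.05, as did 10.1% of all tested genes. With no replicate block in edgeR, 3 of the 7 did, and 2011 of 16707 tested genes. In 3 of the 7 genes all SP libraries lay above all vehicle libraries, as in 9.19% of all genes, and in 0 of the 7 they lay below, as in 9.03%.

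**Figure D1:**
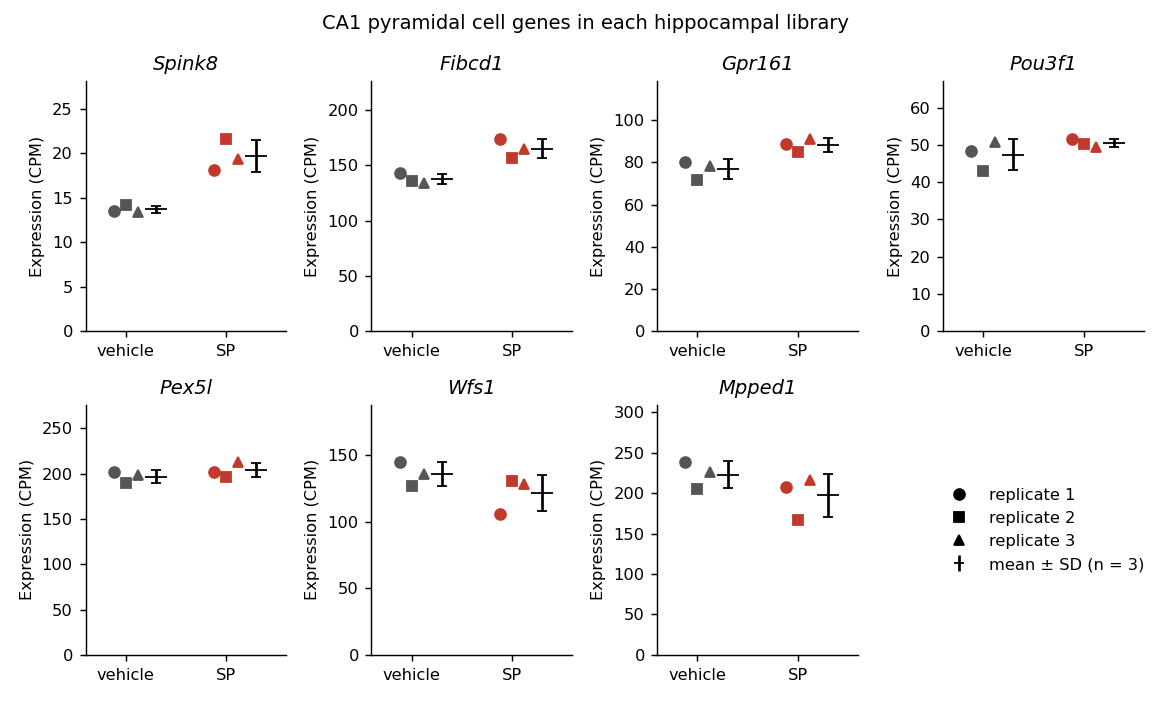
Expression in CPM (vertical axes, from 0) of the 7 CA1 genes in 3 vehicle (grey) and 3 SP (red) libraries, with a marker shape for each replicate number and mean ± SD beside the points. The SP points of *Spink8*, *Fibcd1* and *Gpr161* lie above all vehicle points, and those of the other 4 genes overlap with vehicle.

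*Spink8* (ENSMUSG00000050074, chromosome 9 of GRCm38 from 109812280 to 109826633, plus strand) encodes a secreted inhibitor of serine proteases of the Kazal type. It had 13.5, 14.2 and 13.4 CPM in vehicle 1, 2 and 3, and 18.1, 21.6 and 19.4 CPM in SP 1, 2 and 3. The lowest SP library was above the highest vehicle library, and SP 2 was highest. The means were 13.7 ± 0.420 CPM and 19.7 ± 1.78 CPM (SD, n = 3 mice each), a log2 fold change of 0.52 (standard error 0.0803, 95% interval 0.33 to 0.71). The adjusted p was 0.242 in edgeR, the lowest of the 7 genes, and the gene ranked 18 of 17069 by p. *Spink8* passed the DEG thresholds when no filter on low counts was applied (adjusted p 0.00581 in edgeR) and in DESeq2 without the block (adjusted p 0.00784). In these settings 384 and 116 of 28039 genes were DEGs. In DESeq2 with the block, the adjusted p of *Spink8* was 0.249.

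*Fibcd1* (ENSMUSG00000026841, chromosome 2 from 31813290 to 31846005, minus strand) encodes a membrane receptor for acetylated sugars such as chitin and for glycosaminoglycans of the extracellular matrix. Its values were 143, 136 and 134 CPM in the vehicle libraries and 174, 157 and 165 CPM in the SP libraries. The groups did not overlap, with the lowest SP value in SP 2. The means of 137 ± 4.73 CPM and 165 ± 8.60 CPM (SD, n = 3 each) gave a log2 fold change of 0.26 (standard error 0.0499, 95% interval 0.15 to 0.38, adjusted p 0.308). Its adjusted p was 0.0340 with no filter and 0.0101 in DESeq2 without the block, but the log2 fold change stayed below the minimum of 0.3 in all 12 alternatives.

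*Gpr161* (ENSMUSG00000040836, chromosome 1 from 165295789 to 165326745, plus strand) encodes a G protein-coupled receptor of the primary cilium that restrains Hedgehog signaling through cyclic AMP. It had 80.3, 71.5 and 78.5 CPM in vehicle and 88.7, 84.7 and 91.2 CPM in SP. Replicate 2 was the lowest library of each group, and the groups did not overlap. The means were 76.7 ± 4.66 CPM and 88.2 ± 3.27 CPM (SD, n = 3 each), a log2 fold change of 0.20 (standard error 0.0531, 95% interval 0.078 to 0.33, adjusted p 0.351).

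*Mpped1* (ENSMUSG00000041708, chromosome 15 from 83779467 to 83858494, plus strand) encodes a predicted metallophosphoesterase of the brain. Vehicle libraries had 238, 205 and 226 CPM, and SP libraries 208, 167 and 217 CPM. SP was lower in 3 of 3 replicate pairs, but SP 1 and SP 3 lay within the vehicle range and only SP 2 lay below it. The means of 223 ± 16.5 CPM and 197 ± 26.3 CPM (SD, n = 3 each) gave a log2 fold change of -0.18 (standard error 0.0593, 95% interval -0.32 to -0.045, adjusted p 0.416). Its unadjusted p in edgeR was 0.0163 with the replicate block and 0.0880 without it.

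*Wfs1* (ENSMUSG00000039474, chromosome 5 from 36966104 to 36989205, minus strand) encodes wolframin, a membrane protein of the endoplasmic reticulum that is needed for calcium balance and the stress response there. It had 145, 127 and 136 CPM in vehicle and 106, 130 and 129 CPM in SP. SP 1 was the lowest of the 6 libraries, while SP 2 and SP 3 lay within the vehicle range. The means were 136 ± 8.72 CPM and 122 ± 13.5 CPM (SD, n = 3 each), a log2 fold change of -0.16 (standard error 0.0897, 95% interval -0.37 to 0.047, adjusted p 0.586). Without replicate 1 the log2 fold change was -0.022, and without replicate 2 it was -0.26.

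*Pou3f1* (ENSMUSG00000090125, chromosome 4 from 124656807 to 124660655, plus strand) is a gene of 1 exon for a POU-domain transcription factor. Its values of 48.4, 42.9 and 50.9 CPM in vehicle and 51.6, 50.3 and 49.4 CPM in SP overlapped, and vehicle 2 was lowest. The log2 fold change was 0.093 (standard error 0.0693, 95% interval -0.069 to 0.26, adjusted p 0.688), and 0.025 without replicate 2. *Pex5l* (ENSMUSG00000027674, chromosome 3 from 32949408 to 33143247, minus strand) encodes an auxiliary subunit that sets the trafficking and gating of HCN channels in pyramidal cell dendrites. It had 202, 189 and 199 CPM in vehicle and 202, 197 and 212 CPM in SP, values that overlapped, with a log2 fold change of 0.051 (standard error 0.0498, 95% interval -0.066 to 0.17, adjusted p 0.778).

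**Figure D2:**
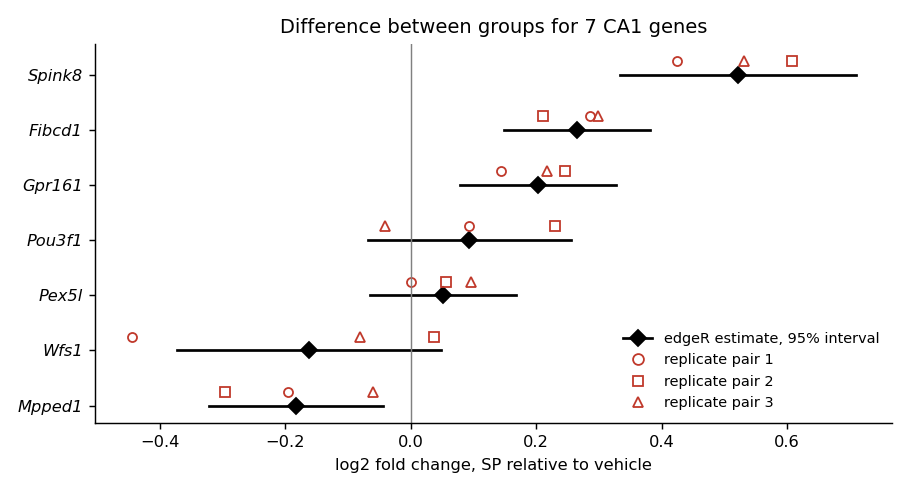
Log2 fold change of SP relative to vehicle (horizontal axis) for the 7 CA1 genes, with edgeR's estimate and its 95% interval in black and the log2 ratio of each replicate pair as an open red marker. The intervals of *Spink8*, *Fibcd1* and *Gpr161* lie above 0, that of *Mpped1* lies below 0, and the pairs of *Wfs1* range from -0.45 to 0.036. All intervals come from the fit with the replicate block.

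Per length, the CA1 genes spanned a wide range. In the vehicle libraries *Mpped1* was highest, at 68.0 ± 5.03 CPM per kilobase of the longest coding transcript (SD, n = 3 mice). *Pex5l* followed at 46.8 ± 1.62, *Wfs1* at 35.9 ± 2.30, *Fibcd1* at 28.9 ± 0.995, *Spink8* at 17.8 ± 0.547, *Pou3f1* at 12.3 ± 1.06 and *Gpr161* at 11.2 ± 0.680 on this scale. Neighbours in this order did not overlap between libraries, except *Pou3f1* and *Gpr161*. In the SP libraries *Fibcd1* (34.8 ± 1.81) stood above *Wfs1* (32.1 ± 3.56), but their libraries overlapped, as did those of *Pou3f1* (13.1 ± 0.288) and *Gpr161* (12.9 ± 0.476). The place of *Pex5l* depends on the length used, since it had 22.2 CPM per kilobase over all its annotated exons in vehicle, below *Wfs1* at 35.9 and *Fibcd1* at 28.9. Of the sequences of 31 bases in these genes' transcripts, at most 0.433% occurred in another gene.

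The 7 genes varied in different ways over the 6 libraries, which share the dissection and fall into both groups. Of 21 pairs of genes, 12 had a positive and 9 a negative Pearson's r of log2 CPM. These values include the difference between the groups, so r was also taken over the deviations of the libraries from their group means. *Gpr161* and *Pex5l* had r = 0.85, and 0.94 over the deviations. *Fibcd1* and *Gpr161* had r = 0.89, and 0.49 over the deviations. For *Spink8* the sign turned, with r = 0.81 with *Fibcd1* but -0.82 over the deviations, and 0.73 with *Gpr161* but -0.62. *Spink8* and *Mpped1* had r = -0.75, and -0.85 over the deviations. *Wfs1* had a negative r with 5 of the other 6 genes over the libraries, but over the deviations its r was negative only with *Fibcd1* (-0.47) and *Mpped1* (-0.096). The mean z-score of the CA1 genes had r = 0.95 with *Gpr161* and with *Pex5l*, 0.78 with *Pou3f1*, 0.72 with *Fibcd1* and 0.54 with *Spink8*. With *Mpped1* and *Wfs1* it had r = 0.089 and -0.13, so it does not stand for all 7 genes. About 11990 genes with a mean of at least 5 CPM were searched over the 6 libraries, so the extreme r are high by selection. Those most like the mean z-score were *Fam118a*, *Hsd17b11*, *Dcaf15*, *Tfcp2* and *Sh3bp4*, with r from 0.975 to 0.984. The most opposite were *Rnf121*, *Eif2a*, *Pias2*, *Iqck* and *Fastkd5*, with r from -0.990 to -0.972. The log2 fold changes of these 10 genes lay between -0.18 and 0.13, with adjusted p from 0.573 to 0.816 in edgeR.

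The lists of genes around the CA1 members held 0 DEGs each, where 5 of all 17069 tested genes were DEGs. Among the genes named from these lists, *Hcn4*, *Hsp90b1* and *Klk8* had an unadjusted p under 0.05 in edgeR, as did 10.1% of all tested genes. Among the HCN channels that the *Pex5l* protein binds, *Hcn4* had 3.31, 3.15 and 3.30 CPM against 2.86, 1.33 and 2.29 CPM (log2 fold change -0.63, adjusted p 0.436), without overlap, and *Hcn2* and *Hcn3* had log2 fold changes of 0.074 and 0.057. The 4 genes of peroxisomal import, a list that includes *Pex5*, from which *Pex5l* takes its name, had values from -0.013 for *Pex13* to 0.086 for *Pex5*.

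For *Gpr161*, a list of 13 Hedgehog and cyclic AMP genes had 0 genes with an unadjusted p under 0.05, and a median log2 fold change of -0.036. In this list 4 genes had positive and 9 negative log2 fold changes, and the highest was 0.090. The Hedgehog targets and effectors *Gli1*, *Gli2*, *Gli3* and the receptor gene *Ptch1* had log2 fold changes of -0.26, -0.20, -0.16 and -0.088, each lower in 3 of 3 replicate pairs, with adjusted p from 0.618 to 0.670 in edgeR. These are the lowest values of the list. Around *Wfs1*, 1 of 11 genes of the endoplasmic reticulum stress response had an unadjusted p under 0.05. This was *Hsp90b1*, a chaperone gene, with 345, 316 and 324 CPM in vehicle and 296, 286 and 299 CPM in SP. Its libraries did not overlap, and its log2 fold change was -0.16 (standard error 0.0505, adjusted p 0.415). *Hspa5*, also a chaperone gene, had -0.12, and the stress factors *Atf4* and *Ddit3* had -0.030 and 0.097.

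The relatives of *Pou3f1*, *Pou3f2*, *Pou3f3* and *Pou3f4*, had log2 fold changes of -0.13, 0.061 and -0.33, and *Mpped2*, the relative of *Mpped1*, had 0.10. Of 6 other Kazal inhibitor genes, only *Spink10* passed the filter on low counts (log2 fold change -0.13), while *Spink1* and *Spink6* had 0 counts in each library. *Klk8*, which encodes neuropsin, a serine protease of hippocampal pyramidal cells that acts in synaptic plasticity, had 7.86, 7.36 and 8.64 CPM in vehicle and 12.1, 12.2 and 11.1 CPM in SP. The groups did not overlap, and the log2 fold change was 0.57 (standard error 0.107, adjusted p 0.308).

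Beside the CA1 genes, markers of neighbouring fields were read from lists that were likewise chosen with earlier results known. All 7 CA3 markers had positive log2 fold changes, with a median of 0.25. Of them, 5 had an unadjusted p under 0.05 in edgeR, as did 10.1% of all tested genes. *Grik4*, a kainate receptor subunit gene and the most abundant of them, had 54.1, 59.0 and 54.5 CPM in vehicle and 61.5, 71.5 and 62.4 CPM in SP (log2 fold change 0.22, adjusted p 0.351). *Homer3*, a postsynaptic scaffold gene, had 0.41 (adjusted p 0.231), *Iyd* had 0.88 and *Tspan18* had 0.20. Among 8 dentate granule markers the median was 0.22 and 1 gene had an unadjusted p under 0.05, with values from -0.17 for *Glis3* to 0.41 for *Lct*. The 5 CA2 markers had a median of 0.045, from -0.044 for *Necab2* to 0.25 for *Rgs14*. DEGs numbered 0 in each of these lists.

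**Figure D3:**
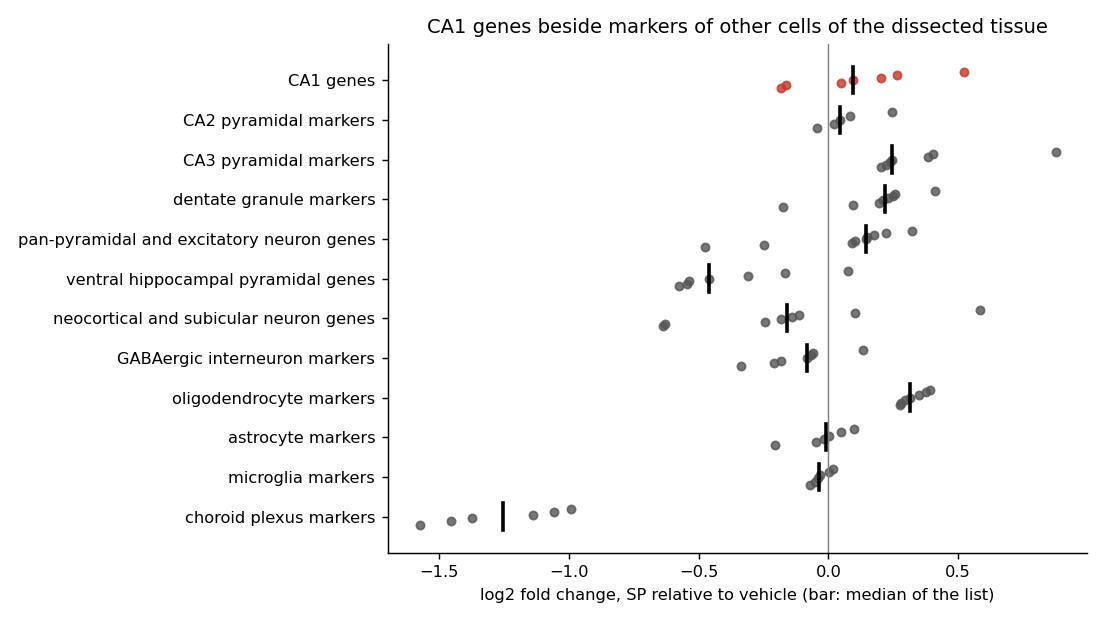
Log2 fold change of SP relative to vehicle (horizontal axis) for each gene of the CA1 set (red) and of lists of markers of other cells (grey), with a black bar at the median of each list. The CA1 genes lie on both sides of 0 with a median of 0.093, the 7 CA3 markers lie above 0, and the 6 choroid plexus markers lie between -1.58 and -0.99.

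Summed over the 7 genes, CA1 expression was 870, 786 and 837 CPM in the vehicle libraries and 849, 808 and 882 CPM in the SP libraries, with means of 831 ± 42.4 and 846 ± 37.1 CPM (SD, n = 3 each). These sums overlapped between groups. The summed CA3 markers did not overlap, at 208 to 236 CPM in vehicle and 244 to 302 CPM in SP. The log2 ratio of the CA1 sum to the CA3 sum was 2.02, 1.74 and 2.01 in vehicle and 1.67, 1.42 and 1.86 in SP, a difference of -0.27 between the group means. Each SP library was below its vehicle partner, although SP 3 lay within the vehicle range. As a score over chosen genes the ratio was not tested.

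The part of each gene in that ratio differed. Relative to the CA3 sum, the mean log2 ratio was lower in SP by values of -0.46 for *Wfs1*, -0.48 for *Mpped1* and -0.25 for *Pex5l*, and was 0.22 higher for *Spink8*. For *Fibcd1*, *Gpr161* and *Pou3f1* it differed by -0.032, -0.095 and -0.20. Relative to dentate granule markers, the CA1 ratio was 1.08, 0.87 and 0.91 in vehicle and 0.72, 0.41 and 1.20 in SP. SP 2 was lowest and SP 3 highest of all 6 libraries, and the difference of -0.18 between the means was smaller than the SD of 0.40 among the SP libraries.

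**Figure D4:**
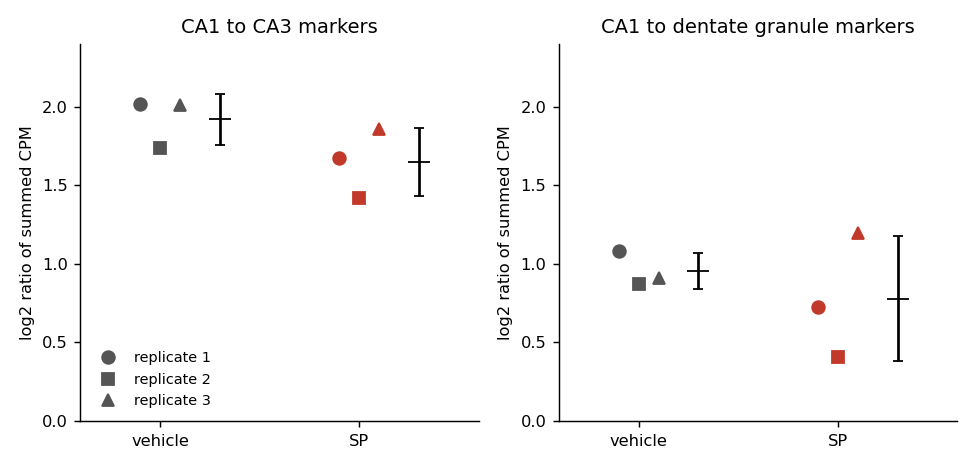
Log2 ratio of the summed CPM of the 7 CA1 genes to that of CA3 markers (left) and of dentate granule markers (right) in each vehicle (grey) and SP (red) library, with mean ± SD. The CA1 to CA3 ratio is lower in SP in each replicate pair, and the SP libraries spread from 0.41 to 1.20 in the CA1 to dentate ratio.

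Markers of other cells moved with the groups beside these values. Of 8 neocortical and subicular neuron genes, 6 had negative log2 fold changes. In edgeR 2 of the 8 had an unadjusted p under 0.05, both lower in SP, where 10.1% of all tested genes did. The summed level of the 8 was 184 to 193 CPM in vehicle and 140 to 169 CPM in SP. *Cux2*, an upper-layer cortical factor, had 43.1, 35.2 and 37.7 CPM in vehicle and 23.1, 20.6 and 31.7 CPM in SP (log2 fold change -0.64, adjusted p 0.308). *Wfs1* and *Mpped1*, which are shared with neocortex, had negative log2 fold changes, and *Pou3f1* and *Pex5l*, also shared, did not. The part of cortical or subicular tissue in the values of the CA1 genes was not tested.

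Genes used to mark ventral hippocampus are relevant because *Wfs1* labels the dorsal part of CA1 most strongly. Of 7 such genes, 6 had negative log2 fold changes. In edgeR 2 of the 7, *Htr2c* and *Nr2f2*, had an unadjusted p under 0.05, as did 10.1% of all tested genes. The median of the 7 was -0.46, and their sum was 402 to 430 CPM in vehicle and 236 to 390 CPM in SP, lowest in SP 2. *Nr2f2*, a nuclear receptor gene, was the only one of the 7 without overlap between the groups and is named here after its values were seen. It had 39.7, 34.1 and 41.8 CPM in vehicle and 33.9, 17.4 and 30.0 CPM in SP (log2 fold change -0.55, adjusted p 0.335). *Dcn*, which meningeal cells also express, had 86.6, 75.6 and 76.5 CPM in vehicle and 80.3, 24.9 and 70.3 CPM in SP. *Htr2c*, also a gene of choroid plexus, had a log2 fold change of -0.54 (adjusted p 0.335), *Etv1* had -0.17 and *Gpc3* had 0.074. A different share of the dorsal and ventral hippocampus in the libraries was not tested.

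Genes of excitatory neurons in general were mostly higher in SP, with positive log2 fold changes in 7 of 9 and a median of 0.14, and the highest was 0.32 for *Neurod2* (adjusted p 0.369). Their sum was 5955 to 6270 CPM in vehicle and 6241 to 7412 CPM in SP. The 7 oligodendrocyte markers had log2 fold changes from 0.28 for *Mog* to 0.39 for *Cldn11*. Of the 7, 5 had an unadjusted p under 0.05 in edgeR, as did 10.1% of all tested genes. The oligodendrocyte sums were 2011 to 2296 CPM in vehicle and 2326 to 3349 CPM in SP. All 6 choroid plexus markers were lower, from -1.58 for *Ttr* to -0.99 for *Kl*. Their sums were 3776 to 4705 CPM in vehicle and 170 to 3933 CPM in SP. The 7 interneuron markers had a median of -0.082 (sums of 652 to 730 CPM and 522 to 703 CPM), and among 7 thalamic and striatal markers the median was 0.028 (72.7 to 105 CPM and 73.6 to 80.6 CPM). For 6 astrocyte and 6 microglia markers the medians were -0.0080 and -0.035, with summed levels of 1274 to 1343 CPM and 277 to 289 CPM in vehicle and 1224 to 1352 CPM and 268 to 286 CPM in SP. None of these markers was at 0 counts in any library, and their part in the CA1 values was not tested.

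Leaving out the libraries that stood apart did not turn the direction of any CA1 gene. Without replicate 1, which holds SP 1, the log2 fold changes of *Spink8*, *Fibcd1* and *Gpr161* were 0.57, 0.25 and 0.23, and that of *Mpped1* was -0.18. Without replicate 2, which holds SP 2, they were 0.48, 0.29, 0.18 and -0.13 in the same order. The number of CA1 genes with an unadjusted p under 0.05 was 3 without replicate 1, 5 without replicate 2 and 4 without replicate 3, and 0 of them were DEGs in these fits.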

How the data were processed

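Hippocampal RNA-seq libraries of 3 SP and 3 vehicle mice were analysed. For these files the authors used TrimGalore, STAR with the GRCm38 genome and Salmon, and deposited estimated counts per gene, which are scaled neither for depth nor for length. The tool versions and the annotation release are not given in the sources used here. Columns headed as controls were matched to the vehicle samples by treatment and batch number, and 0 columns were left unmatched. Of the values, 9.77% were not whole (tolerance 1e-09), and all were rounded.

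Genes were kept by filterByExpr on the design (minimum count 10, minimum total 15), a setting chosen over the filter on the group alone after both had been fitted, normalized by TMM and tested with glmQLFit and glmQLFTest of edgeR 4.0.16 in R 4.3.3, with Benjamini-Hochberg adjustment over 17069 genes. The labels call the replicate number a batch, and the paper's methods adjust for replicates, so it was a block. The deviations of same-numbered mice from their group means had r = 0.019, -0.065 and 0.099 across genes, which are not independent. P-values set the group difference against the spread left between these mice after the block, with a variance that edgeR moderates with information from other genes. Intervals of 95% use the test's standard error and 7.38 degrees of freedom. Positions and lengths came from GENCODE M21 (GRCm38), and promoter windows from RefSeq.

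The alternatives were limma 3.58.1, DESeq2 1.42.0, other normalizations, filters and thresholds, no block, and each replicate number left out. The filter on the group alone was fitted first, and the main filter on the design was chosen after seeing the data. Results for a few listed genes are not reported here. The fits were tested on simulated data with known changes. The 20 lists of 134 genes, which include the CA1 genes, were chosen with earlier results of these data known. Named genes were drawn from the 7 CA1 genes, the pathway lists around them, the extremes, the lowest p and the most abundant gene of each marker list, and the 5 genes most like and the 5 most opposite to the CA1 mean. *Ddit3* has another row with 0 counts, which was not used.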

Additional observations from a re-analysis of the deposited data

How the results depend on the processing

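The number of DEGs over all genes, 5 with the replicate block, was 5 with RLE or upper quartile normalization and with no minimum fold change. With the filter set by the group alone, 16707 genes were tested in edgeR and 1705 had an unadjusted p under 0.05. The number of DEGs was 0 with this filter, which was fitted before the main filter was chosen. It was 2 with no replicate block, where the filter also left 16707 genes, 2 with limma-voom, 0 with at least 10 counts in every library (edgeR, 1663 genes at an unadjusted p under 0.05) and 0 at FDR < 0.05 (edgeR, 1720 genes). It was 384 with no filter, 38 in DESeq2 with the block, 116 in DESeq2 without it, and 9 to 36 when a replicate number was left out. The cause of these shifts was not tested. Of the 7 CA1 genes, 0 were DEGs in 12 of 14 alternatives and 1, *Spink8*, in the others, with no filter and in DESeq2 without the block, at log2 fold changes of 0.52 in both. The block changed no other call of a CA1 gene. However, the unadjusted p of *Mpped1* in edgeR was 0.0163 with the block and 0.0880 without it. All 7 genes kept the sign of their log2 fold change in the 12 alternatives that refit it, with *Spink8* between 0.48 and 0.57, *Fibcd1* between 0.24 and 0.29, *Gpr161* between 0.18 and 0.23, *Mpped1* between -0.25 and -0.13 and *Wfs1* between -0.26 and -0.022. The median of the 7 was 0.048 to 0.16. The difference in the CA1 to CA3 ratio was -0.33 to -0.18, where normalization cancels by construction, and -0.18 with only *Wfs1*, *Fibcd1*, *Spink8* and *Gpr161*. That in the CA1 to dentate ratio was -0.41 to -0.035. The number of mice limits the precision.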
